A study of Mus musculus with 2 samples.

Results

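The pacemaker genes of ureter peristalsis described here are 8 genes linked to rhythm generation in the renal pelvis and ureter. They are the channel genes Hcn2, Hcn3, Hcn4, Cacna1g, Cacna1h and Ano1, the receptor gene Kit and its ligand gene Kitl. They were found by gene name among the spots that are not controls on 2 two-colour Agilent arrays, which gave 12 probes with 48 spots, out of 39429 probes. Of these, 11 probes of 7 genes were well above background, and the ratios of those 7 are read beside the 21150 genes tested in the whole series. The arrays compare total RNA of dissected mouse ureters at postnatal day 4, on the NMRI strain. Each array held an RNA of Rbpj-cKO ureters, of genotype Tbx18(cre/+);Rbpj(fx/fx), and an RNA of Tbx18(+/+);Rbpj(fx/n.d.) ureters, the control, where the labels leave the second Rbpj allele as n.d. Both groups thus carried at least 1 floxed Rbpj allele, and only the Rbpj-cKO ureters carried cre, which takes the place of 1 Tbx18 allele. Array 1 held a pair labelled female, whose Rbpj-cKO RNA carried the red dye (Alexa647), and array 2 a pair labelled male with the dyes exchanged. The labels do not say how many animals were pooled or whether renal pelvis was dissected with the ureter, so the spread between 2 arrays may be partly technical.

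Urine is moved down the ureter by waves of smooth muscle contraction that start near the kidney, in pacemaker cells of the renal pelvis. In pacemaker tissues, HCN channels open on hyperpolarisation and carry an inward cation current, and T-type calcium channels open at low voltages and add calcium entry. Ano1 encodes a chloride channel gated by intracellular calcium, which carries the pacemaker current in the interstitial cells of Cajal of the gut. Kit encodes the receptor tyrosine kinase that marks those interstitial cells as well as mast cells and melanocytes, and Kitl encodes its ligand, stem cell factor. Tbx18 is expressed in the mesenchyme that forms the muscle and stroma of the ureter, and Rbpj encodes the transcription factor that turns Notch signals into gene activity. The comparison addresses which transcripts differ between ureters whose Tbx18 lineage carries the cre driven deletion and control ureters.

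The precision is limited by the number of arrays, which is 2. Between 71.8% and 74.0% of the gene spots were well above background per RNA. The targeted gene Rbpj had log2 ratios of -0.92 and -1.10, and its probe was not placed relative to the deleted stretch. With an adjusted p of 0.0875 in limma, Rbpj itself did not pass the adjusted threshold used below. Missing that threshold therefore does not show that a gene was unchanged. On array 1, labelled female in both channels, log2 ratios of the Y-linked genes reached 4.23 for Ddx3y and 4.26 for Eif2s3y, while both RNAs gave Xist signal above background. The sex label of that Rbpj-cKO RNA is therefore not matched by its transcripts, and each result below is also given per array. Defining markers of the labelled tissue were present: 8 of 8 smooth muscle markers and 7 of 7 urothelium markers passed the filter for signal above background. Fat cell markers were lower in the Rbpj-cKO RNAs (8 of 8 on both arrays), kidney epithelium markers were higher (6 of 6 measured), and hepatocyte markers stood high in the control RNA of array 2, with a summed level of 15.73 against 12.06 to 12.93 in the other RNAs. A summed level is the log2 of the summed normalized intensities of the measured markers.

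None of the 7 measured pacemaker genes passed the adjusted threshold of limma, and none reached 1.5-fold in 1 direction on each array (1.20% of all genes did). The mean log2 ratios of Rbpj-cKO over control ran from -0.46 to 0.44, with adjusted p between 0.223 and 0.9 in limma, adjusted over all 21150 genes. Over all genes tested, 0.00473% passed that threshold (1 gene), 0.402% were at least 1.5-fold higher on both arrays and 0.794% at least 1.5-fold lower. At an unadjusted p under 0.05 limma took 2 of the 7, beside 14.0% of all genes. Cacna1g was higher, as were 6.99% of all genes, and Kitl lower, as were 7.02%. By sign alone, 4 genes were above 0 on both arrays (Hcn3, Ano1, Cacna1g and Cacna1h), 2 below 0 on both (Kit and Kitl), and Hcn2 had opposite signs. With median centring in place of loess, 3 were above 0 on both arrays, since Ano1 then had opposite signs. Among all genes these shares were 31.8%, 29.8% and 38.5%. The median of the 7 was 0.10 on array 1 and 0.03 on array 2, beside -0.01 and 0.01 over all genes.

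**Figure D1:**
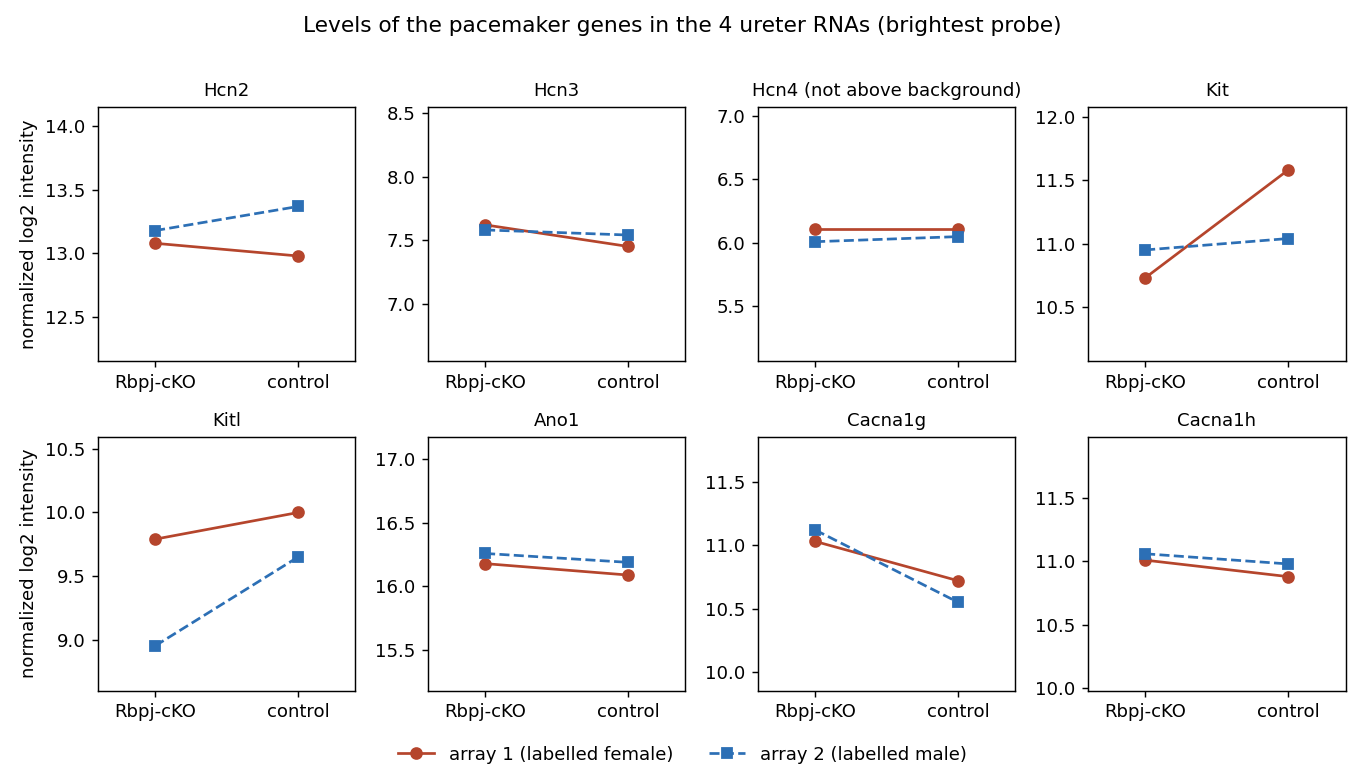
Normalized log2 intensity (y axis, each panel spanning the same range) of the brightest probe of each of the 8 genes in the Rbpj-cKO and control RNAs (x axis); a line joins the RNAs of 1 array. Kit is highest in the control RNA of array 1 (11.58), Kitl is lowest in the Rbpj-cKO RNA of array 2 (8.95), and Hcn4 was not well above background. Both Rbpj-cKO RNAs lie above both control RNAs for Cacna1g, as for 22.3% of all genes.

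The HCN genes encode the channels of the hyperpolarisation-activated current. Hcn2, a subunit also common in neurons, had levels of 13.08 and 13.18 in the Rbpj-cKO RNAs of arrays 1 and 2, against 12.98 and 13.37 in the control RNAs, on the normalized log2 scale of its brightest probe. The groups overlapped, because the control RNAs lay on both sides of the Rbpj-cKO RNAs. The ratios of 0.10 (array 1) and -0.19 (array 2) averaged -0.04 ± 0.21 (SD, n = 2), with an adjusted p of 0.9 in limma and a 95% interval of limma, not adjusted for the number of genes, from -0.32 to 0.23. Read as red over green, that probe stood at 0.10 and 0.19, above 0 on both arrays, and its bases are 81.7% G or C; the part of the dye in the opposite signs was not tested. The second Hcn2 probe, with 60.0% G or C, had ratios of -0.11 and -0.02. It was far dimmer, with levels of 8.59 in both Rbpj-cKO RNAs and 8.70 and 8.61 in the control RNAs. The 2 probes thus give very different levels for Hcn2. Both probes lie on chromosome 10 of mm9, at 79198412-79198471 and 79198592-79198651.

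Hcn3 encodes the subunit reported in the mouse pelvis and kidney junction, and its probe on chromosome 3 (88951031-88951090, mm9) was dim. Its levels were 7.62 and 7.58 in the Rbpj-cKO RNAs and 7.45 and 7.54 in the control RNAs. The groups did not overlap, as for 22.3% of all genes in this direction, but the Rbpj-cKO RNA of array 2 lay close to the control RNA of that array. The single spots of the probe ran from 0.05 to 0.31 on array 1 and from -0.07 to 0.11 on array 2, so the mean ratio of 0.11 ± 0.10 (SD, n = 2, adjusted p = 0.647 in limma) is of the size of the scatter between spots. Its interval ran from -0.11 to 0.32.

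Hcn4, the main HCN subunit of the sinoatrial node, gave no measurable level in any of the 4 RNAs. Its 1 probe, on chromosome 9 (58708685-58708744, mm9), had median raw signals of 59.6 and 25.7 in the Rbpj-cKO RNAs, against local backgrounds of 62.0 and 26.5. In the control RNAs the signals were 27.3 and 54.6, against backgrounds of 26.5 and 59.0. The red channel has the higher background on both arrays, which is why these pairs alternate. All its spots were at the level of the surrounding glass, so Hcn4 was not well above background in both groups, and its computed ratios of 0.01 and -0.03 compare background with background. The accessory subunit gene Kcne2 was likewise not well above background.

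The T-type channel gene Cacna1g, which encodes Cav3.1, had the highest ratio of the 7 genes. Its brighter probe had levels of 11.03 and 11.12 in the Rbpj-cKO RNAs, against 10.72 and 10.55 in the control RNAs. Both Rbpj-cKO RNAs thus lay above both control RNAs, as for 22.3% of all genes. The ratio was 0.31 on array 1 and 0.57 on array 2, that is 1.24-fold and 1.49-fold, just short of 1.5-fold on array 2. The mean was 0.44 ± 0.19 (SD, n = 2), higher on 2 of 2 arrays, with an adjusted p of 0.223 in limma and an unadjusted interval from 0.18 to 0.70. It lay at percentile 98.4 of the mean ratios of all genes. The second Cacna1g probe gave 0.33 and 0.26, a mean of 0.29 ± 0.05 (SD, n = 2), with levels of 10.59 and 10.58 in the Rbpj-cKO RNAs and 10.26 and 10.32 in the control RNAs. No single spot of either probe was below 0.20 on either array.

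The second probe is shown because it ends in a stop codon and was therefore taken to read the end of the coding sequence. No annotation of the coding sequence was at hand to check this. It covers a stretch of the transcript apart from the brighter probe. It lies on the minus strand of chromosome 11, at 94270459-94270518 (mm9), and is printed 5′ to 3′ with the stop codon in capitals.
Cacna1g: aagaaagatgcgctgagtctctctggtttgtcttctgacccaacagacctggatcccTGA
Read from its first base, it holds 19 open codons before that stop. The brighter probe, at 94269863-94269922, starts 537 bases beyond that stop in the numbering of the same transcript. If the stop ends the coding sequence, the brighter probe lies in the 3′ UTR. In the RNAs where Cacna1g was higher, kidney epithelium markers were higher too, in 6 of 6 measured, with summed levels of 11.69 and 11.37 in the Rbpj-cKO RNAs and 10.92 and 10.82 in the control RNAs. Of the kidney list, the salt transporter genes Slc12a1 and Slc12a3 were not well above background, and the highest mean ratios included those of Kap (1.24 ± 0.20) and the megalin gene Lrp2 (0.99 ± 0.05). Urothelium markers were higher on both arrays in 4 of 7, led by Trp63 (0.34), Upk1b (0.33) and Upk1a (0.30), with summed levels of 19.31 and 19.21 in the Rbpj-cKO RNAs and 18.88 and 19.18 in the control RNAs. The part of either cell type in the ratio of Cacna1g was not tested. In bulk RNA, more cells of a type and more RNA per cell cannot be told apart.

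Cacna1h, which encodes the T-type channel Cav3.2, had 3 probes with ratios near 0. The brightest, on chromosome 17 (25511235-25511294, mm9), had levels of 11.01 and 11.06 in the Rbpj-cKO RNAs and 10.88 and 10.98 in the control RNAs. These groups did not overlap, as for 22.3% of all genes in this direction. The ratios were 0.13 and 0.08, with a mean of 0.10 ± 0.03 (SD, n = 2, adjusted p = 0.612 in limma) and an interval from -0.09 to 0.30. The other probes lie far upstream in the gene, at 25568825-25568884 and 25569818-25569877. The first of them gave 0.02 on both arrays, and the other -0.04 and -0.10. That last probe was dim, with levels of 7.04 and 7.03 in the Rbpj-cKO RNAs and 7.08 and 7.13 in the control RNAs. Its spots on array 1 ran from -0.11 to 0.05. The sign of Cacna1h thus differed between its probes only by this dim probe. The third T-type gene, Cacna1i, stood at 0.08 and -0.02.

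**Figure D2:**
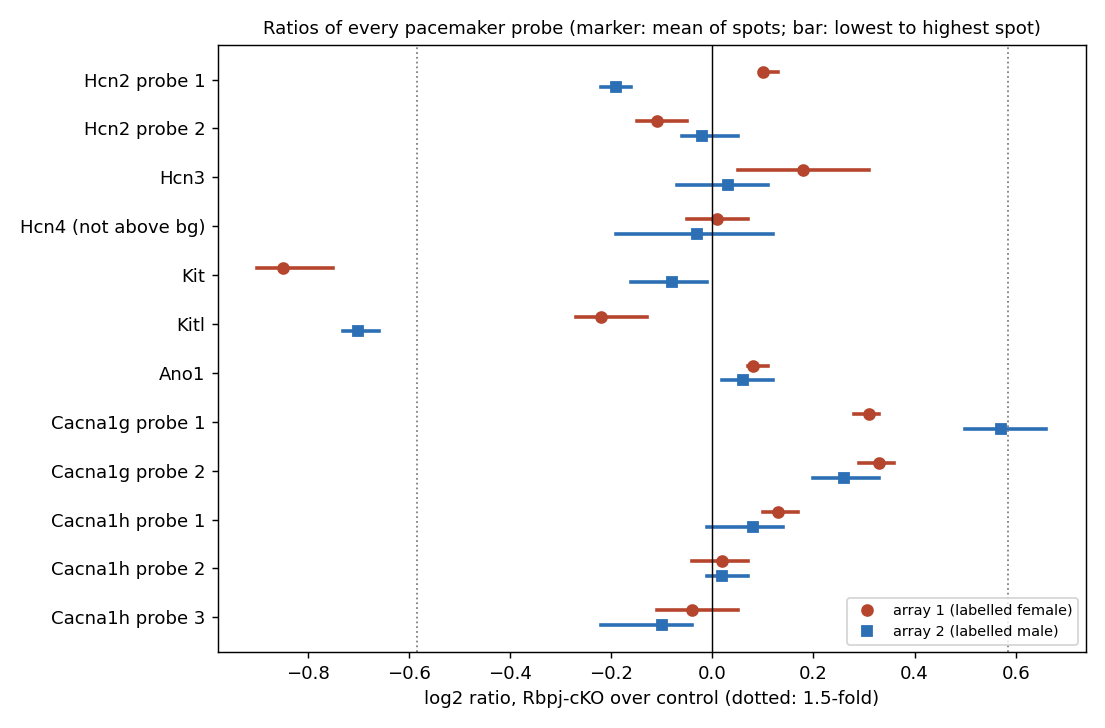
Log2 ratio of Rbpj-cKO over control (x axis) for each of the 12 probes (y axis); markers are the mean of the spots on an array and bars run from the lowest to the highest spot, with dotted lines at 1.5-fold and the Hcn4 probe drawn although it was not well above background. Both Cacna1g probes lie right of 0 on both arrays, Kit passes the 1.5-fold line on array 1 only (-0.85) and Kitl on array 2 only (-0.70).

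Ano1, the calcium-activated chloride channel, had nearly equal ratios on the 2 arrays after loess, and ratios of 0.48 and -0.39 when the arrays were only centred on their medians. Read as red over green, both centred ratios were above 0, and the part of the dye in them was not tested. The Ano1 probe, on chromosome 7 (151774604-151774663, mm9), had levels of 16.18 and 16.26 in the Rbpj-cKO RNAs, against 16.09 and 16.19 in the control RNAs. The groups overlapped, since the control RNA of array 2 lay between the Rbpj-cKO RNAs. The ratios were 0.08 and 0.06, with a mean of 0.07 ± 0.01 (SD, n = 2), an adjusted p of 0.737 in limma and an interval from -0.12 to 0.27. That interval lies inside a 1.5-fold difference in either direction, as do those of Hcn2, Hcn3 and Cacna1h. The intervals of Kit, Kitl and Cacna1g do not. Each interval rests on 2 arrays with 1 residual degree of freedom and leans on the prior of limma. The ratio of the dim Hcn3 probe is also pulled towards 0 by the processing.

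Kit was lower in the Rbpj-cKO RNA on both arrays, but by very unequal amounts. Its levels were 10.73 and 10.95 in the Rbpj-cKO RNAs, against 11.58 and 11.04 in the control RNAs. The control RNA of array 1 stood apart above the other 3 RNAs. The groups did not overlap, as for 20.8% of all genes in this direction. The ratio was -0.85 on array 1 (0.557 of the control level) and -0.08 on array 2 (0.945), with spots from -0.90 to -0.75 and from -0.16 to -0.01. The mean was -0.46 ± 0.54 (SD, n = 2), lower on 2 of 2 arrays, with an adjusted p of 0.406 in limma and an interval from -0.99 to 0.07. The probe lies on chromosome 5, at 76052394-76052453 (mm9).

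Markers of other cells that carry KIT are given beside Kit, with those of endothelium and fat cells, whose medians were below 0 on array 1. These are not the only such cell types. Skeletal muscle, smooth muscle, and nerve and Schwann cell markers also had medians below 0 on array 1, of -0.24, -0.17 and -0.07. Of 8 mast cell markers 6 were measured, with medians of -0.31 on array 1 and 0.51 on array 2, 2 of them above 0 on both arrays and 4 with opposite signs. Hdc, the enzyme that makes histamine, had 0.17 and 0.26, the tryptase gene Tpsb2 0.08 and 0.18, and the protease gene Mcpt4 -0.23 and 0.57. The other mast cell genes measured, chosen after their values were seen, were Cpa3 with -0.54 and 0.76, Cma1 with -0.41 and 0.67 and Tpsab1 with -0.39 and 0.45. Thus 4 of 6 were below 0 on array 1, and all 6 were above 0 on array 2, where Kit had -0.08. The summed levels of the 6 were 11.99 and 12.07 in the Rbpj-cKO RNAs and 12.29 and 11.53 in the control RNAs. The highest sum was in the control RNA of array 1, as for Kit, but the lowest was in the control RNA of array 2. Kit was lowest in the Rbpj-cKO RNA of array 1 (10.73), with 11.04 in the control RNA of array 2. The defining receptor genes Fcer1a and Ms4a2 were not well above background. Of 5 melanocyte markers, Tyrp1 and Dct were not well above background, and Mlana, Tyr and Pmel lay between -0.22 and 0.14. Their summed levels were 9.50 and 9.58 in the Rbpj-cKO RNAs and 9.52 and 9.57 in the control RNAs. The 5 endothelium markers had medians of -0.47 and -0.11, with summed levels of 15.73 and 15.77 in the Rbpj-cKO RNAs and 16.25 and 15.85 in the control RNAs. The fat cell markers had medians of -2.90 and -1.37, and their summed levels 16.61 and 16.77 in the Rbpj-cKO RNAs and 19.46 and 17.95 in the control RNAs. The lowest of them were Cfd (-4.73 and -2.22), Ucp1 (-2.74 on both arrays) and Cidea (-3.37 and -2.02), and none of the 8 was below background. The part of any of these cell types in the ratio of Kit was not tested.

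Over the 4 RNAs, the named genes whose centred levels lay closest to those of Kit were Letm1, Adipor2 and Mdh1, with Euclidean distances of 0.012, 0.040 and 0.047 on the log2 scale. Letm1 encodes an ion-handling protein of the inner mitochondrial membrane, Adipor2 an adiponectin receptor and Mdh1 the cytosolic malate dehydrogenase. Their ratios were -0.85 and -0.10 for Letm1, -0.83 and -0.07 for Adipor2, and -0.87 and -0.08 for Mdh1. Likeness over 4 RNAs of 2 arrays is a description only, since 21150 genes were searched.

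Kitl, the ligand gene, was lower on both arrays too, and here array 2 had the larger difference. Its levels were 9.79 and 8.95 in the Rbpj-cKO RNAs, against 10 and 9.65 in the control RNAs. The groups overlapped, because the Rbpj-cKO RNA of array 1 lay above the control RNA of array 2. The Rbpj-cKO RNA of array 2 was the lowest of the 4. The ratio was -0.22 on array 1 (0.861 of the control level) and -0.70 on array 2 (0.618), with spots from -0.27 to -0.13 and from -0.73 to -0.66. The mean was -0.46 ± 0.34 (SD, n = 2), lower on 2 of 2 arrays, with an adjusted p of 0.297 in limma and an unadjusted interval from -0.82 to -0.09. With the scanner's own log ratio, the deposited series values or the 4 channels fitted without pairing, Kitl no longer passed an unadjusted p under 0.05 in limma. The mean ratios of Kit and Kitl lay at percentiles 3.08 and 3.21 of all genes. The Kitl probe lies on chromosome 10, at 99558962-99559021 (mm9).

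Smooth muscle markers, which name a tissue that also makes Kit ligand, were lower on both arrays in 6 of 8 and their median ratio was -0.17 (array 1) and -0.35 (array 2). The largest differences were those of the desmin gene Des (-0.74 ± 0.12), the enteric actin gene Actg2 (-0.40, with -0.24 and -0.55) and the smoothelin gene Smtn (-0.30, with -0.28 and -0.32). Their summed levels were 19.45 and 19.29 in the Rbpj-cKO RNAs and 19.47 and 19.66 in the control RNAs. Hepatocyte markers had medians of 0.79 and -3.03, led by Afp (0.95 and -4.14), Apoh (0.61 and -3.17) and Ahsg (0.93 and -3.20). The part of either in the ratio of Kitl was not tested.

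**Figure D3:**
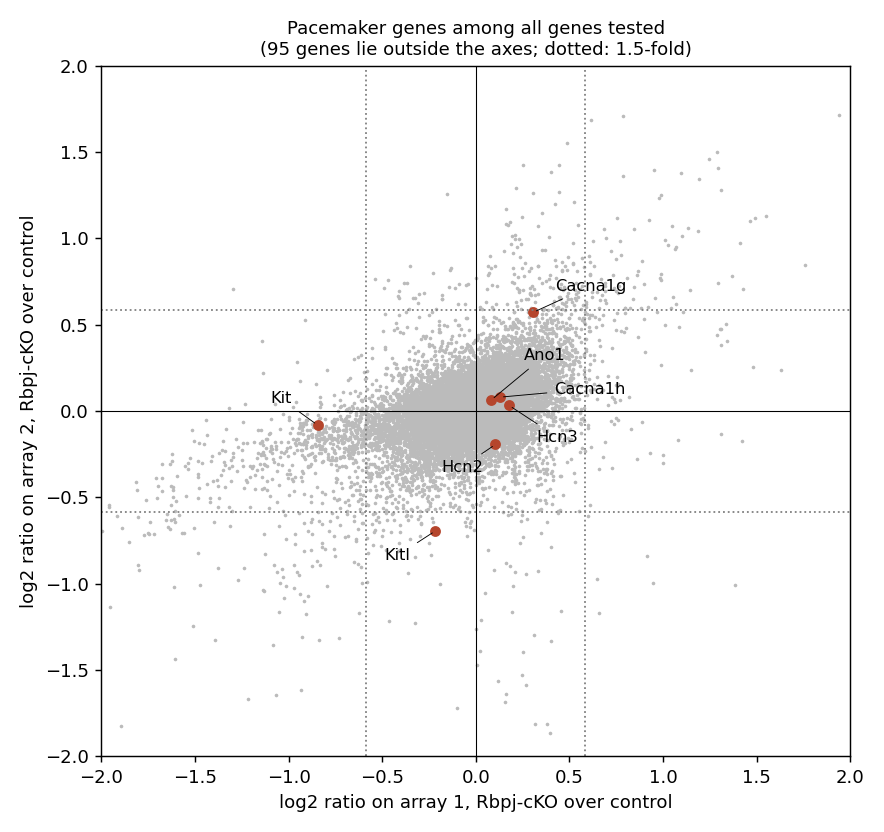
Log2 ratio of Rbpj-cKO over control on array 1 (x axis) and array 2 (y axis), with each grey point 1 of the 21150 genes tested and red points the 7 measured pacemaker genes; dotted lines mark 1.5-fold and 95 genes lie outside the axes. Ano1, Cacna1h, Hcn2 and Hcn3 lie within the central cloud, Kit and Kitl at its left and lower edge, and Cacna1g at its upper edge, with none of the 7 past 1.5-fold on both arrays.

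The authors' deposited table of both arrays, read as signed fold changes of Rbpj-cKO over control, gave the measured genes the same signs on each array for their brightest probes. Its scaling and centring are unknown, and the median of each column was 1. In the authors' deposited table Cacna1g stood at 1.32 and 1.5 with its brighter probe and at 1.31 and 1.21 with the other. Kit had -1.70 and -1.05, Kitl -1.15 and -1.69, and Ano1 1.07 and 1.04 in the authors' deposited table, where a negative value means a lower level in the Rbpj-cKO RNA. Hcn3 had 1.24 and 1.02, and Hcn4 exactly 1 on both arrays, in the authors' deposited table. A value of exactly 1 was common there, held by 31.8% of all probes on array 1 and 31.6% on array 2.

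Of 37 other genes of pacemaking and excitation, 34 were measured, and 1 reached 1.5-fold in 1 direction on each array. Among all genes 1.20% did, with 0.794% lower. That gene was Cav3, which encodes the caveolin of muscle and a partner of HCN channels in the heart, with ratios of -2.24 and -0.81 (mean -1.52 ± 1.01, SD, n = 2, adjusted p = 0.232 in limma). Its levels were 10.05 and 11.76 in the Rbpj-cKO RNAs and 12.29 and 12.57 in the control RNAs, and it stood beside fat cell markers with medians of -2.90 and -1.37. Skeletal muscle markers, 5 of 6 measured with Myh3 not well above background, had medians of -0.24 and -0.40, and 2 of them, Myh8 (-1.51 and -1.24) and Ckm (-0.82 and -0.79), were past 1.5-fold on both arrays. Their summed levels were 15.46 and 15.60 in the Rbpj-cKO RNAs and 15.80 and 15.80 in the control RNAs, and the part of either cell type in the ratio of Cav3 was not tested. None of the 34 passed the adjusted threshold, while at an unadjusted p under 0.05 limma took 6, with 1 higher and 5 lower, beside 14.0% of all genes, 6.99% higher and 7.02% lower. Of the 34, 8 were above 0 on both arrays, 16 below 0 on both and 10 had opposite signs, where the shares of all genes were 31.8%, 29.8% and 38.5%, with a median mean ratio of -0.07 beside 0.00 over all genes.

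By role, 5 of the 9 genes of calcium stores and exchange were below 0 on both arrays and 2 above. Itpr2, a calcium release channel of the endoplasmic reticulum, had -1.42 and -0.29 (mean -0.85 ± 0.80, SD, n = 2), and Atp2a2, the calcium pump that refills the store, -0.38 and -0.31 (mean -0.35 ± 0.05, SD, n = 2, adjusted p = 0.216 in limma). Of the 6 genes of voltage-gated calcium channels, 0 were above 0 on both arrays and 3 below, all with mean ratios between -0.16 and 0.06. The 3 potassium channels had mean ratios between -0.26 and -0.01, and the gap junction genes -0.12 and 0.16. The 3 transducers of KIT signals lay between -0.09 and 0.04. Among the transcription factors, Etv1, which interstitial cells of Cajal require, had -0.26 and -0.30 (mean -0.28 ± 0.03, SD, n = 2, adjusted p = 0.265 in limma), while the highest mean ratio was 0.23. Shox2, a regulator of sinoatrial cells, was not well above background.

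**Figure D4:**
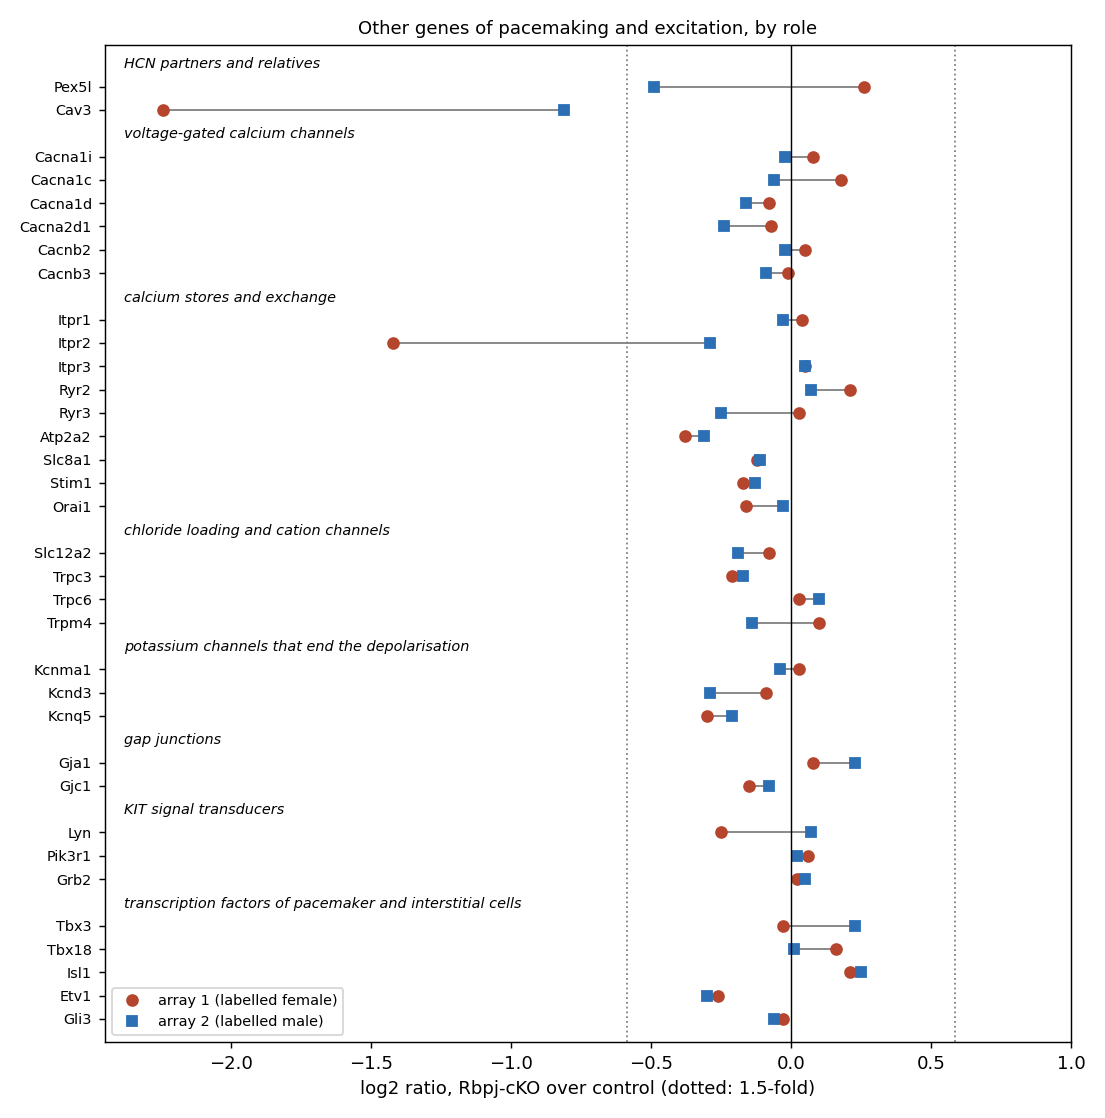
Log2 ratio of Rbpj-cKO over control (x axis) on array 1 and array 2 for the 34 measured genes of the pathway list, grouped by role (y axis); a grey line joins the values of a gene and dotted lines mark 1.5-fold. Cav3 (-2.24 and -0.81) is the only gene past 1.5-fold on both arrays, and Itpr2 passes it on array 1 only (-1.42).

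Because Rbpj was the deleted gene, the promoters were searched for TGGGAA, the core of the RBPJ binding motif, on both strands and with overlaps counted. Windows from 250 bases before to 50 after a transcription start, from RefSeq (GRCm38.p6), existed for 5 of the 8 genes; Hcn3, Cacna1g and Cacna1h had none in that table. These 5 genes had 6 windows. By gene, the core was present in 2 of the 5, Ano1 and Kitl. Counted by window and not by gene, 25.6% of all 32851 windows of this length hold it. The sites are shown, 30 bases each, 5′ to 3′ on the strand of the gene and with the core or its reverse complement in capitals.
Ano1: catctcTTCCCAcaaactggcagagtggtc
Kitl: cggtccaacctcTGGGAAgatccccgccct
The Ano1 site lies at chr7:144738794-144738823 and begins its core 244 bases before the start, and the Kitl site lies at chr10:100015655-100015684 with its core 154 bases before the start. A match of 6 letters describes the sequence and does not show binding, and the 2 genes with it had mean ratios of 0.07 and -0.46.

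**Figure D5:**
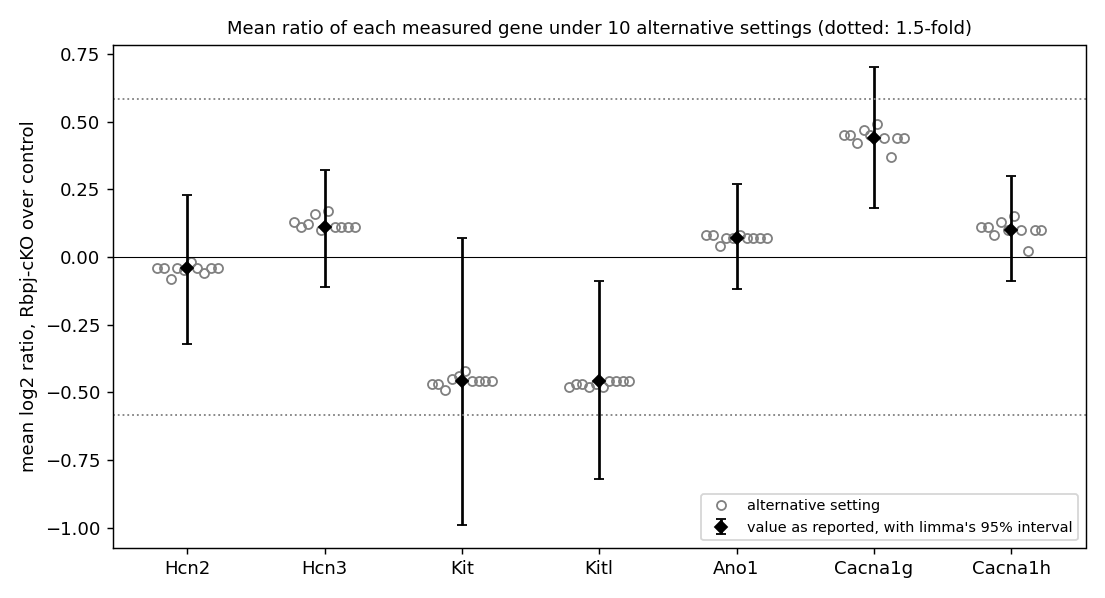
Mean log2 ratio of Rbpj-cKO over control (y axis) of each measured gene (x axis), as reported (diamond, with limma's unadjusted 95% interval) and under 10 alternative settings (open circles). The alternatives stay close to each reported value, such as 0.37 to 0.49 for Cacna1g, while the intervals of Kit, Kitl and Cacna1g reach past the dotted 1.5-fold lines.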

How the data were processed

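The deposited scanner tables give intensity per spot and dye, read with Feature Extraction 10.7.3.1 of Agilent, and mm9 probe positions, per the file headers. The scanner's own ratio, red over green on a log10 scale, was deposited beside them. The authors' deposited series table holds a score of unstated making, read here as signed fold changes because no value was smaller than 1 in size. It followed the corrected and normalized ratios described next (Pearson's r 0.951 and 0.923 over 39429 probes). These are not the scanner's own ratio. Mean signals were corrected with normexp (offset 50), normalized by loess within arrays (control spots at weight 0) and turned to Rbpj-cKO over control. Spots with outlier flags were dropped (3.34% and 3.12%), no spot was saturated, and the remaining spots were averaged per probe. Levels per RNA came from Aquantile normalization.

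A probe was kept where, for at least 1 genotype, over 50% of the spots on each array exceeded background clearly by the scanner's call (28182 probes). A gene was represented by its brightest probe, and names were updated by RefSeq accession (28328 probes matched). Ratios were tested against 0 with limma 3.58.1 (R 4.3.3), two-sided, and p-values adjusted by Benjamini-Hochberg were called under 0.05; 1 residual degree of freedom per gene became 4.35 with the prior. The script was tested on simulated data. SDs are between the 2 arrays. Dye, sex label and replicate changed together and were not separable, and both arrays share 1 slide and scan. On array 1 the Y-linked transcripts also differed between the genotypes, so sex and genotype cannot be told apart there. The members and gene lists were chosen with earlier results of these data known. The rule for names took all members, pathway genes past either threshold or among the 4 largest, and 3 markers per list. Some genes that the rule or lists hold are not reported here. The 12 alternatives concern background correction, normalization, value source, filter, probes, prior, pairing and leaving out an array.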

Additional observations from a re-analysis of the deposited data

Results flagged for a closer look

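Each pair of RNAs has its own sex label, and a few named genes had opposite signs in the pair labelled female (array 1) and the pair labelled male (array 2). No test was made of this difference, because each sex label has 1 pair, and dye and sex label change together. The label of array 1 is also not matched by the Y-linked gene Ddx3y, at 11.31 in its Rbpj-cKO RNA and 7.08 in its control RNA. Among all genes 38.5% had opposite signs. Of the pacemaker genes this concerned Hcn2, with 0.10 on array 1 and -0.19 on array 2. Of the hepatocyte markers, Afp had 0.95 and -4.14, Ahsg 0.93 and -3.20, and Apoh 0.61 and -3.17. The mast cell gene Mcpt4 had -0.23 and 0.57, and the endothelial cadherin gene Cdh5 -0.47 and 0.01. The melanocyte genes Mlana, Pmel and Tyr had 0.14 and -0.22, -0.07 and 0.09, and -0.06 and 0.01.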

How the results depend on the processing

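Under the 10 alternatives that keep both arrays, each of the 7 genes kept the sign of its mean ratio and none passed the adjusted threshold, with mean ratios of 0.37 to 0.49 for Cacna1g, -0.49 to -0.42 for Kit, -0.48 to -0.46 for Kitl, 0.02 to 0.15 for Cacna1h and 0.10 to 0.17 for Hcn3. Median centring gave Ano1 0.48 on array 1 and -0.39 on array 2, both above 0 as red over green, in place of 0.08 and 0.06. Median centring left the sign of each other gene on each array as reported. The lowest adjusted p for Cacna1g was 0.167 (trend and robust settings). At an unadjusted p under 0.05, limma took Cacna1g under all 10 of these alternatives, and did not take Kitl with the scanner's log ratio, the deposited series values or the 4 channels. The number of members at least 1.5-fold different in the same direction on both arrays stayed 0, and became 1 with either array alone (range 1 to 1: Kitl on array 2, Kit on array 1), where no test can be run. For the pathway genes the count was 1 to 2, with Itpr2 added on array 1 alone. Hcn2 stood at -0.19 without replicate 1 and at 0.10 without replicate 2. Over all genes, the scanner's log ratio put 247 at 1.5-fold or more higher and 265 lower, the deposited series values 154 higher and 209 lower, and the reported setting 85 higher and 168 lower. Trend and robust settings called 95 genes in place of 1. With the 4 channels fitted as 2 groups with no replicate block, 0 members passed. Hcn4 entered without the filter on dim probes (mean -0.01). Dim probes, such as that of Hcn3, have ratios pulled towards 0 by the offset.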

Other observations

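Markers of other cell types that can hold HCN or T-type channels, or Kit, were also read. Of 9 nerve and Schwann cell markers, 4 were below 0 on both arrays and 1 above, with medians of -0.07 and -0.10. The ubiquitin hydrolase gene Uchl1 of neurons had -0.64 and -0.75, S100b -0.68 and -0.16, and Sox10, the transcription factor of glia, -0.16 and -0.37. Of 6 skeletal muscle markers 5 were measured, 4 of them below 0 on both arrays, with means of -1.38 ± 0.19 for the perinatal myosin gene Myh8, -0.80 ± 0.02 for Ckm and -0.32 ± 0.13 for Tnnt3. Of 5 endothelium markers, 3 were below 0 on both arrays, with Cldn5 at -0.79 and -0.28 and Kdr at -0.65 and -0.11. SDs are between the 2 arrays, and none of these genes passed the adjusted threshold of limma.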
